A study of Mus musculus with 10 samples.

Results

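The genes described here are the neurotransmitter receptors spotted on a 2-colour mouse array, with a few proteins whose array names carry the name of a receptor. They were chosen by spot name alone. No measured value entered the rule, though earlier results of these data were known when it was made. A spot was taken where its name contained glutamate receptor, gamma-aminobutyric acid or GABA, glycine receptor, cholinergic receptor, 5-hydroxytryptamine, dopamine receptor, adrenergic receptor or opioid receptor, and names with solute carrier or transporter were left out. This gave 40 names on 58 spots, of 15188 names and 22818 spots that were not controls. Of these 40 names, 33 were receptors or receptor subunits (45 spots) and 7 were proteins that bind, traffic or regulate receptors, or only share part of a receptor's name (13 spots).

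Fast transmission in the brain runs through ligand-gated channels, which open for glutamate, GABA, glycine or acetylcholine, and slower transmission runs through receptors coupled to G proteins. The paraventricular nucleus of the hypothalamus (PVN) holds the neurons that drive the hormonal stress response and secrete vasopressin and oxytocin. Glutamate, GABA and noradrenaline inputs are known to set the activity of these neurons, and their receptors are assembled from subunits whose genes are measured one by one on an array.

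The arrays compared PVN tissue of mice separated from their mothers for 24 h with that of mice that were not separated. Each group had 6 animals, taken as punches from frozen 100 µm sections with a 1 mm corer, and punches of 2 animals were joined into each of 3 samples. Amplified RNA of the 3 samples went into 1 pool per group, and both pools were hybridised together on every one of 10 arrays. The separated pool was in Cy5 on 5 arrays and in Cy3 on the other 5, with the non-separated pool in the other dye. Litters were assigned to the groups at random, and both groups otherwise shared the same tissue, amplification and arrays. The sources used here give no strain, age or sex for the mice.

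The 10 arrays are technical repeats of 1 comparison between 2 pools. Their SD is array error, and it includes any gap between the dye orientations. It holds nothing on the spread between animals or litters, so no p-value for separation can be had. The 2 dye orientations were scanned on different days, and scan day and dye orientation cannot be told apart. Values are log2 ratios of the separated over the non-separated pool, averaged within each dye orientation and then over both orientations, with the SD over 10 arrays. A name with several spots is given by its brightest spot. The sign rests on the dye fields of the sample labels. The authors' deposited log2 table runs the opposite way on all 10 arrays under these dye fields, with correlations of -0.956 to -0.916, and if each array's title named the pool in Cy5, every direction below would turn round.

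A name was called where the mean difference reached 1.5-fold and all 10 arrays had 1 sign. A spot counted as above empty spots where either channel passed the 95th percentile of the 1170 empty spots on at least 8 of 10 arrays. That level ranged over the arrays between 670 and 2913 intensity units in Cy5 and between 1031 and 4192 in Cy3. The array numbered 3 in each orientation stood apart before normalisation. Its median log2 of Cy5 over Cy3 was -1.31, against -1.03 to -0.90 on the others, where the separated pool was in Cy5, and 0.32, against -1.01 to -0.63 on the others, where the separated pool was in Cy3.

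The markers that define the dissected tissue were weak on these arrays. Of 5 PVN markers looked for, vasopressin (Avp), oxytocin (Oxt), corticotropin-releasing hormone (Crh) and thyrotropin-releasing hormone (Trh) were matched by name, and none of the 4 lay above empty spots. Avp, the antidiuretic hormone, differed by -0.53 ± 0.49 on the log2 scale (SD, 10 arrays), and Crh, the peptide that starts the stress response, by 0.17 ± 0.54. Of 6 neuron markers 4 lay above empty spots. The hormone genes therefore gave no check of the punch as PVN beyond the labels.

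No neurotransmitter receptor name met the call in either direction. Of 40 names 0 were called higher and 0 lower in the separated pool, where 0.0658% of all 15188 names were called higher and 0.191% lower. At shares of that size a count of 0 in 40 is near the background and is no result about the receptors. The median over the 40 names was -0.01, with 19 above 0 and 21 below, and the median over all names was 0.01. Single names lay between -0.41 and 0.36, so none reached 0.585, the log2 of 1.5-fold.

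Detection limited most of these measurements. Only 9 of the 40 names lay above empty spots on at least 8 arrays, 13 did so on 1 to 7 arrays and 18 on none. Among the 9 detected names were the GABA-A subunit Gabra6, the GABA-B subunit Gabbr1, the nicotinic subunit Chrnd, the muscarinic receptors Chrm1 and Chrm3, the serotonin receptor Htr1d, and the associated proteins Gabarapl2 and Grinl1a. Their median was -0.00 (range -0.40 to 0.24) with a median array SD of 0.29, and the other 31 names had a median of -0.02 with a median array SD of 0.55. No detected name belonged to the ionotropic or metabotropic glutamate, glycine, dopamine or adrenergic receptors. For the undetected names the ratios are given as measurements only, with no fold.

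**Figure D1:**
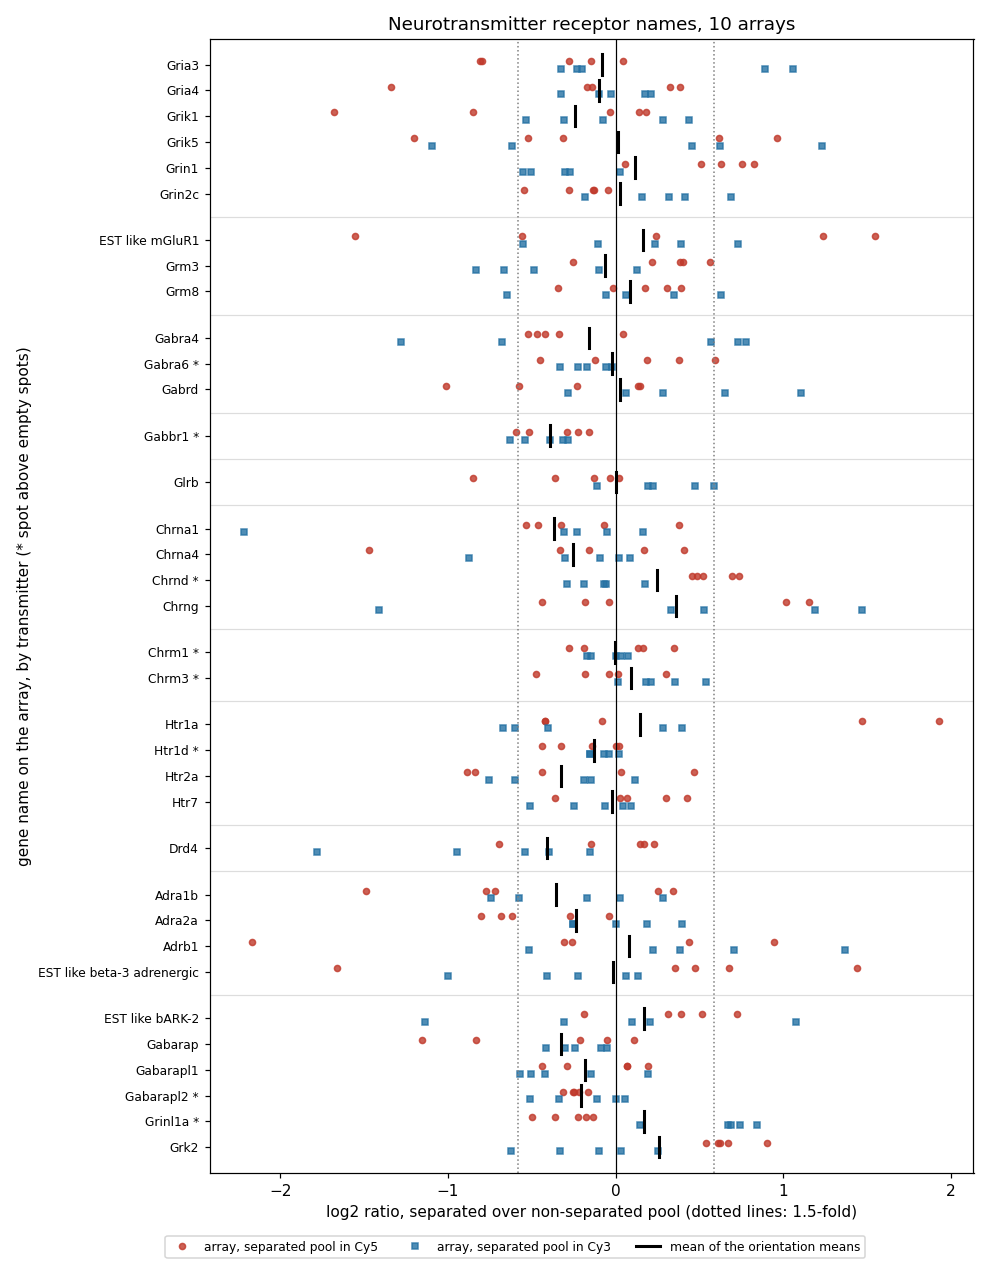
Log2 ratio of the separated over the non-separated pool (x axis) for 35 of the 40 names (y axis, grouped by transmitter, a star marking the 8 of them above empty spots). Circles (5 arrays) show the separated pool labelled with Cy5, squares (5 arrays) with Cy3, bars the mean of the orientation means and dotted lines 1.5-fold. Gabbr1 has all 10 points below 0, between -0.63 and -0.16, while most other names have points on both sides of 0.

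The array SD fell with spot brightness, except among the brightest names. The median SD over all names was 0.79 for names with a mean normalised log2 intensity of 6 to 7, 0.38 for 10 to 11, 0.22 for 14 to 15 and 0.54 for 15 to 16. Among the receptors it ran between 0.15 for Htr1d and 0.98 for the beta-1 adrenergic receptor Adrb1. For most of the 40 names the mean ratio was smaller than this SD. The SD is that of single arrays and includes any gap between the dye orientations. It is wider than the error of a mean over 10 arrays, so a mean smaller than its SD is not thereby shown to be 0. Only 2 of the 40 names, Gabbr1 and Gabarapl2, had a mean ratio larger than its SD, beside 698 of 15188 names on the whole array.

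**Figure D2:**
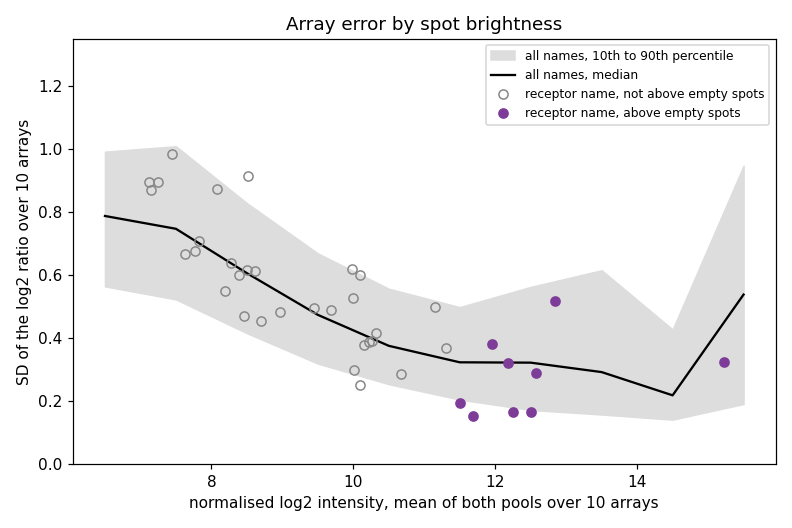
SD of the log2 ratio over 10 arrays (y axis) against the normalised log2 intensity of the spot averaged over both pools (x axis). The line and the shaded area are the median and the 10th to 90th percentile over all names. Filled points are the 9 of the 40 names above empty spots and open points the other 31. The median SD over all names is 0.79 at an intensity of 6 to 7 and 0.22 at 14 to 15, and the open points lie mostly at low intensity and high SD.

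Gabbr1, which encodes the ligand-binding subunit of the metabotropic GABA-B receptor, was the one name with the same sign on all 10 arrays. With the separated pool in Cy5 its log2 ratios were -0.16, -0.29, -0.59, -0.52 and -0.22, and with the separated pool in Cy3 they were -0.28, -0.39, -0.32, -0.63 and -0.54. Every array was therefore lower in the separated pool, and the orientation means of -0.36 and -0.43 lay close together. The normalised log2 intensity averaged 12.06 ± 0.73 in the separated pool and 12.45 ± 0.67 in the non-separated pool (SD, 10 arrays). The mean log2 ratio was -0.40 ± 0.17, which is 1.31-fold lower in the separated pool and short of the 1.5-fold call.

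On the whole array 1.05% of names lay below 0 on all 10 arrays and 0.461% above 0. Among names above empty spots these shares were 4.06% and 1.62%, and Gabbr1 was 1 of 9 such receptor names below 0 and 0 of 9 were above. A call at 1.3-fold with 1 sign on all arrays, which took Gabbr1 as lower, took 0.599% of all names as lower and 0.23% as higher, and 1.58% and 0.621% of those above empty spots. Without both arrays numbered 3 the ratio of Gabbr1 was -0.38, and those of the other 8 detected names lay between -0.19 for Gabarapl2 and 0.24 for Chrnd. In pooled tissue, fewer cells that express a gene and less of its RNA per cell cannot be told apart.

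Gabbr1 had 5 spots of the same name, and they did not all give the same value. The second brightest spot, above empty spots on 9 arrays, gave -0.42 ± 0.20. Its ratios were -0.34, -0.12, -0.34, -0.23 and -0.77 with the separated pool in Cy5, and -0.56, -0.71, -0.33, -0.48 and -0.35 with the separated pool in Cy3. Both detected spots were thus below 0 on all 10 arrays. The third spot, above empty spots on 3 arrays, gave -0.22 ± 0.50, with an orientation mean of -0.52 where the separated pool was in Cy5 and 0.07 where it was in Cy3. The remaining spots, above empty spots on no array, gave 0.11 ± 0.45 and 0.00 ± 0.51, each with 5 arrays above 0 and 5 below. The median of the 5 spot means was -0.22, and the median over the spots taken on each array and then averaged was -0.29. The clone sequences behind the spots were not analysed here, and whether all 5 measure the same transcript was not tested.

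**Figure D3:**
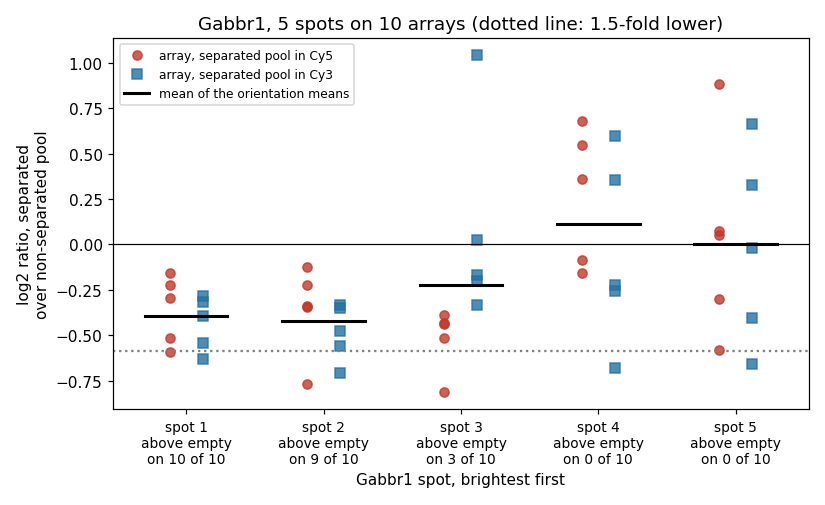
Log2 ratio of the separated over the non-separated pool (y axis) for the 5 Gabbr1 spots (x axis, brightest first, with the number of arrays above empty spots). Circles are arrays with the separated pool in Cy5, squares arrays with it in Cy3, bars the mean of the orientation means and the dotted line 1.5-fold lower. Spots 1 and 2 lie below 0 on all 10 arrays with means of -0.40 and -0.42, and spots 4 and 5 spread on both sides of 0.

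By their brightest spots all 6 astrocyte markers had means below 0, as Gabbr1 did, with a median of -0.43. Of the 6, 3 lay below 0 on all 10 arrays. Gfap and S100b, with 2 spots each, had only 1 spot below 0, and Aqp4 had 5 arrays above 0 and 5 below. The call as lower was met by 2 of the 6, the connexin Gjb6 at -1.22 ± 0.40 and the glycolytic enzyme Aldoc at -0.73 ± 0.35. As background, 0.191% of all names were called lower and 0.239% of those above empty spots. The summed intensity of the 6 astrocyte markers ranged over the arrays between 6391 and 23200 in the separated pool and between 9073 and 40900 in the non-separated pool. Here and for the cells below, such sums rest mostly on the brightest markers. Their ranges mix in the brightness of each array and do not compare the pools within an array. Of these markers 2 lay above empty spots, Aldoc and the connexin Gja1, and Gfap, the intermediate filament of astrocytes, did not and measured -0.20 ± 0.48. The part of astrocyte content in the Gabbr1 ratio was not tested.

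Markers of other cells gave mixed values. The neuronal enolase Eno2 lay below 0 on all 10 arrays at -0.37 ± 0.20, while the median of the 6 neuron markers was -0.01. Myelin basic protein (Mbp) also lay below 0 on all 10 arrays at -0.43 ± 0.27, while the median of the 5 myelin markers was 0.16. The summed intensity of the neuron markers was 37131 to 76474 in the separated pool and 36426 to 70955 in the non-separated pool, and that of the myelin markers was 62372 to 136138 in the separated pool and 69478 to 119418 in the non-separated pool. By their brightest spots all 5 microglia markers matched by name lay above 0, with a median of 0.17. None of the 5 was above empty spots. Their summed intensity was 1316 to 2076 in the separated pool and 1095 to 2318 in the non-separated pool.

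The GABA-A receptor is a chloride channel built of several subunits, of which 6 were on the array. Their median was -0.00, with a range of -0.16 to 0.03, 3 above 0 and 3 below, so no subunit moved clear of 0. Gabra6, an alpha subunit best known from cerebellar granule cells, gave -0.45, 0.59, -0.12, 0.37 and 0.18 with the separated pool in Cy5, and -0.06, -0.02, -0.17, -0.33 and -0.22 with it in Cy3. The first orientation lay on both sides of 0 and the second wholly below it, and the mean was -0.02 ± 0.32. The normalised log2 intensity of this spot was 15.21 ± 0.28 in the separated pool and 15.23 ± 0.24 in the non-separated pool. A second Gabra6 spot was above empty spots on no array and gave -0.24 ± 0.78. Its normalised log2 intensity was only 8.04 ± 0.76 in the separated pool and 8.27 ± 0.44 in the non-separated pool. Whether the 2 spots measure the same transcript was not tested.

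Gabra4, an alpha subunit of receptors outside the synapse, was the lowest of the class at -0.16 ± 0.67, and 0.00 without the third array that held the separated pool in Cy3. Gabrd, the delta subunit that often joins it there, was the highest at 0.03 ± 0.60, and -0.07 without the second array of that orientation, and neither was above empty spots. Glrb, the beta subunit that anchors glycine receptors at synapses, was not above empty spots and gave 0.00 ± 0.41, with orientation means of -0.27 where the separated pool was in Cy5 and 0.27 where it was in Cy3.

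The ionotropic glutamate receptors, the cation channels of fast excitation, were represented by 6 names, none above empty spots. Their median was -0.03, with 3 above 0 and 3 below. Grik1, a kainate receptor subunit, was the lowest at -0.25 ± 0.64, though -0.09 without the third array that held the separated pool in Cy5. Grin1, the obligatory subunit of NMDA receptors, was the highest at 0.12 ± 0.53. Grin1 gave 0.51, 0.05, 0.63, 0.75 and 0.83 with the separated pool in Cy5, and -0.55, -0.51, 0.03, -0.30 and -0.28 with it in Cy3. The 2 orientations did not overlap, so the mean near 0 joined a positive and a negative orientation, and its 3 spots gave 0.12, -0.04 and 0.33. The AMPA receptor subunits Gria3 and Gria4 measured -0.08 ± 0.62 and -0.10 ± 0.49. Grin2c, another NMDA receptor subunit, passed empty spots on 7 arrays and gave 0.03 ± 0.37, and the kainate subunit Grik5 gave 0.01 ± 0.87.

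The metabotropic glutamate receptors, which signal through G proteins, had 3 names with a median of 0.08. An expressed sequence described as highly similar to metabotropic glutamate receptor 1 was the highest at 0.16 ± 0.91, and -0.01 without the fourth array that held the separated pool in Cy5. Grm3, a receptor that lowers cyclic AMP and is found on astrocytes as well as neurons, was the lowest at -0.06 ± 0.48, and 0.00 without that same array. Grm8, a presynaptic receptor, gave 0.08 ± 0.38. None of the 3 was above empty spots, and each SD was several times its mean.

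Among the 4 nicotinic acetylcholine receptor subunits only Chrnd was above empty spots. Chrnd, the delta subunit known from the muscle type of the receptor, gave 0.52, 0.70, 0.73, 0.48 and 0.45 with the separated pool in Cy5, and -0.06, -0.29, -0.19, 0.17 and -0.07 with it in Cy3. The orientations did not overlap: the first lay wholly above 0, with a mean of 0.58, and the second had 1 array above 0 and 4 below, with a mean of -0.09. The mean of both was 0.24 ± 0.38, with a normalised log2 intensity of 12.08 ± 0.40 in the separated pool and 11.84 ± 0.26 in the non-separated pool.

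The other nicotinic subunits were above empty spots on no array. Chrng, the gamma subunit of the embryonic muscle receptor, was the highest of all 40 names at 0.36 ± 0.90, with 6 arrays above 0 and 4 below, and 0.23 without the third array that held the separated pool in Cy3. Chrna1, the alpha subunit of the muscle receptor, gave -0.37 ± 0.71, and 1 array at -2.21 lay far from the others, without which the mean was -0.16. Chrna4, a subunit of the main receptor type in brain, gave -0.26 ± 0.55. Chrnd and Chrng are neighbouring protein-coding genes in the RefSeq table of GRCm38.p6, with 0 genes between them, and both means were above 0 while each was smaller than its SD.

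Both muscarinic acetylcholine receptors on the array were above empty spots, and neither mean ratio was larger than its SD. Chrm1, a receptor that excites neurons through phospholipase C, gave -0.19, 0.35, -0.28, 0.13 and 0.16 with the separated pool in Cy5, and 0.03, 0.07, -0.17, 0.00 and -0.15 with it in Cy3. These values lay around 0 in both orientations, and the mean was -0.00 ± 0.19. Chrm3, which couples to the same pathway, gave -0.04, -0.47, 0.02, 0.30 and -0.18 with the separated pool in Cy5, and 0.21, 0.01, 0.35, 0.54 and 0.18 with it in Cy3. The second orientation lay wholly above 0 and the first on both sides of it, and the mean was 0.09 ± 0.29.

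The 4 serotonin receptors had a median of -0.08, with 1 above 0 and 3 below. Htr1d, a receptor that lowers transmitter release from nerve endings, was the detected one. It gave -0.14, 0.00, -0.44, 0.02 and -0.33 with the separated pool in Cy5, and -0.07, -0.16, 0.02, -0.04 and -0.15 with it in Cy3. With 7 arrays below 0 and 3 above, its mean of -0.13 ± 0.15 was smaller than its SD, and this SD was the lowest of the 40 names. The normalised log2 intensity averaged 11.63 ± 0.30 in the separated pool and 11.75 ± 0.35 in the non-separated pool. Htr2a, an excitatory receptor, was the lowest of the class at -0.33 ± 0.45, and Htr1a, an inhibitory receptor on serotonin neurons and their targets, was the highest at 0.15 ± 0.90, and -0.03 without the second array that held the separated pool in Cy5. Htr7, which raises cyclic AMP, gave -0.02 ± 0.29, and these 3 were not above empty spots.

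The catecholamine receptors were all undetected by the same measure. Drd4, the dopamine receptor on the array and one that lowers cyclic AMP, had the lowest mean of the 40 names. Its ratios were 0.14, -0.70, 0.23, -0.14 and 0.17 with the separated pool in Cy5, and -0.16, -0.40, -0.54, -1.78 and -0.95 with it in Cy3. All 5 arrays of the second orientation were below 0 and the first lay on both sides, so the mean of -0.41 joined orientation means of -0.06 and -0.76, with an SD of 0.62. Without the fourth array of the second orientation the mean was -0.29, and this spot passed empty spots on 1 array.

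The 5 adrenergic receptor names, the targets of noradrenaline and adrenaline, had a median of -0.02 and none was above empty spots. Adra1b, which acts through phospholipase C, was the lowest at -0.36 ± 0.60, and -0.23 without the fifth array that held the separated pool in Cy5. Adra2a, the receptor through which noradrenaline limits its own release, gave -0.23 ± 0.39, with an orientation mean of -0.48 where the separated pool was in Cy5 and 0.01 where it was in Cy3. Adrb1 and an expressed sequence described as similar to the beta-3 adrenergic receptor gave 0.08 ± 0.98 and -0.02 ± 0.87.

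Of the 7 associated proteins 3 belong to the GABARAP family, ubiquitin-like proteins that take part in receptor trafficking and autophagy, and their brightest spots were all below 0. Gabarapl2, the detected one, gave -0.26, -0.16, -0.22, -0.25 and -0.31 with the separated pool in Cy5, and -0.11, 0.06, -0.34, -0.51 and 0.00 with it in Cy3. The first orientation lay wholly below 0 and the second had 2 arrays just above it. The mean was -0.21 ± 0.17, which is 1.16-fold lower in the separated pool, with a normalised log2 intensity of 12.40 ± 0.71 in the separated pool and 12.61 ± 0.59 in the non-separated pool. A second Gabarapl2 spot, above empty spots on 1 array, gave 0.00 ± 0.46. Gabarap measured -0.32 ± 0.39, with 9 of 10 arrays below 0, and its second spot -0.18. Gabarapl1 measured -0.19 ± 0.30, and its other spots 0.26 and 0.01, so spots of the family did not all lie on 1 side.

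Grinl1a, whose locus also encodes the RNA polymerase II subunit Polr2m and carries that symbol in RefSeq, was the only one of the 40 names with 5 arrays of 1 sign in one orientation and 5 of the other sign in the other. It gave -0.36, -0.14, -0.18, -0.50 and -0.23 with the separated pool in Cy5, and 0.74, 0.69, 0.85, 0.15 and 0.67 with it in Cy3. Each orientation alone would therefore give an opposite direction, and the mean of both was 0.17 ± 0.52. On the whole array 3.96% of names split in this way, and 16.7% of those above empty spots, beside 1 of the 9 detected names. Grinl1a is counted with the associated proteins, and of the 33 receptors and subunits 0 split.

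Grk2, the beta-adrenergic receptor kinase that turns off G protein-coupled receptors, came close to the same split. It gave 0.67, 0.62, 0.61, 0.54 and 0.90 with the separated pool in Cy5, and 0.03, -0.63, -0.33, 0.25 and -0.10 with it in Cy3. The orientations did not overlap, and the mean of both was 0.26 ± 0.50, with 7 arrays above empty spots. The other spots gave 0.07 and 0.03. The spot at 0.07, above empty spots on no array, split fully and the other way. Its mean was -0.27 on arrays holding the separated pool in Cy5, all below 0, and 0.41 on the others, all above 0. It was not the brightest spot and did not enter the counts of split names. The share of all names without overlap, the background for Grk2, Chrnd and Grin1, was not counted. An expressed sequence described as weakly similar to beta-adrenergic receptor kinase 2 gave 0.17 ± 0.61.

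The 2 dye orientations gave receptor values that did not follow each other. Over the 40 names the orientation means correlated with r = -0.15 (rho -0.11), and 16 names (40.0%) had the same sign in both. Over all 15188 names r was -0.16 with 43.2% of the same sign, and over the 2095 names above empty spots r was -0.40 with 33.6%. Among the 9 detected names 3 had the same sign in both orientations, Gabbr1, Gabarapl2 and Htr1d, all below 0. These are correlations across genes that share arrays, dyes and scan days, and genes are not independent replicates.

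**Figure D4:**
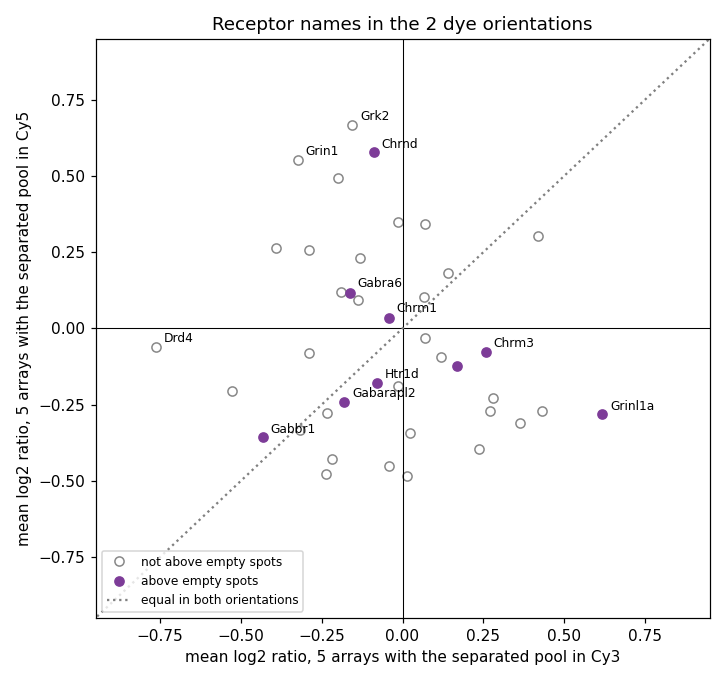
Mean log2 ratio of the separated over the non-separated pool where the separated pool was in Cy5 (y axis, 5 arrays) against that where it was in Cy3 (x axis, 5 arrays) for the 40 names. Filled points are the 9 names above empty spots, open points the other 31, and the dotted line marks equal values. Gabbr1 lies near the line at -0.36 and -0.43, while Grinl1a, Chrnd, Grk2 and Grin1 lie far from it.

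Names with several spots gave a second view of the error, though mostly from spots not above empty spots. Of the 40 names 28 had 1 spot and 12 had 30 spots together. In 7 of these 12 names the spots lay on both sides of 0, with a median range between spots of 0.22 and the widest, 0.54, for Gabbr1. Only Gabbr1 had more than 1 spot above empty spots, and those 2 gave -0.40 and -0.42. The ranges therefore mostly include weak spots and do not compare well measured ones.

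Other genes of these signalling pathways, taken by name, gave values around 0. Of 41 names in 4 lists 0 were called higher and 0 lower, which at the shares over all names, 0.0658% and 0.191%, is near the background and is no result about them. Of the 41 names 5 were above empty spots, and their median was 0.00, with 22 above 0 and 19 below. The 15 scaffold and clustering proteins had a median of 0.03. Gphn, which anchors GABA-A and glycine receptors, gave 0.08 ± 0.38, and Dlg4, the main scaffold of excitatory synapses, gave -0.71 ± 0.65 from a spot above empty spots on no array.

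The 14 receptor kinases, arrestins and regulators of G protein signalling had a median of 0.01, and 3 were above empty spots. Of the 14, 3 had opposite signs in the 2 orientations on all arrays, where 3.96% of all names and 16.7% of those above empty spots did. Among the 8 enzymes that make or break down transmitters the median was 0.00, and the detected one was Gad1, an enzyme that makes GABA, at 0.16 ± 0.52. The 4 precursors of opioid peptides had a median of -0.15 and none was above empty spots. Penk, the precursor of enkephalins, gave 0.34 ± 0.79, and Pomc, the precursor of beta-endorphin, gave -0.41 ± 1.12.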

How the data were processed

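The 10 arrays were used, 5 per dye orientation, each carrying both pools. Spot intensity, deposited on a linear scale per channel, was quantified with QuantArray, per the file headers. The deposited local background columns were 0 in both channels for 91.5% to 99.9% of spots. The authors' deposited log2 table held 19025 spots per array with column medians of 0.0011 to 0.0094, and the sources used here do not state its normalisation. It served as an alternative, turned by sign.

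Intensities were corrected by normexp (offset 50) and normalised by loess within each array, giving controls a weight of 0 (limma 3.58.1, R 4.3.3). Of 24192 spots, 1374 controls were left out, 1170 of them empty, and 2154 expressed-sequence spots with no further name entered no name. Symbols were given by hand to spot names, and 37 of 40 matched the RefSeq table of GRCm38.p6. The calculation was tested on simulated data. The 40 members, the gene lists and the rule for named genes were chosen with earlier results of these data known. Named with values were detected members, members of 1 sign or of opposite orientations, and the extremes of each class, and further members were named to complete each class. A few genes are not reported here. Of 70 list genes 67 were matched, Crh through an abbreviated spot name added after the files were seen. The number of arrays limits the precision. Alternatives changed the background correction, the normalisation, the spot rule, the call and the arrays used.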

Additional observations from a re-analysis of the deposited data

Results flagged for a closer look

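Single arrays far from the other 4 of their orientation were looked for in 52 groups of 5 arrays, where chance gives about 1 in 20, or 2.6, and 2 were found. With the separated pool in Cy3, Chrna1 stood at -2.21 on the second array, against -0.31 to 0.17 on the other 4, from a spot above empty spots on no array. In the same orientation Grinl1a stood at 0.15 on the fourth array, against 0.67 to 0.85 on the other 4. Grinl1a also differed between dye orientations, with a mean of -0.28 where the separated pool was in Cy5 and 0.62 where it was in Cy3, a difference of -0.90. All 5 arrays of each orientation lay on opposite sides of 0, and this difference was not tested.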

How the results depend on the processing

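No count of called receptor names left 0 when any single array was left out (0 to 0 in both directions), and the median over the 40 names then lay between -0.04 and 0.00. Counts moved with the arrays or the call used. Arrays with the separated pool in Cy5 alone called 1 name higher, Grk2 at 0.67. Arrays with it in Cy3 alone called 1 higher, Grinl1a at 0.62, and 1 lower, Drd4 at -0.76. A call at 1.3-fold took 1 name lower, Gabbr1 at -0.40, and the same name was taken among names above empty spots alone, an alternative chosen after seeing the data. Leaving out both arrays numbered 3, also chosen after seeing the data, called none. Over 20 alternatives Gabbr1 ranged between -0.47 with median centring and -0.29 with the median over spots taken on each array. The 25 named log2 ratios gave 477 alternative values, each within 1 array SD of the reported one. For values from a single orientation or with a single array left out, this was bound to hold. The SD is taken over the same arrays and includes the gap between the orientations. A value within 1 SD therefore does not show that the sign held. Of the 40 names, 16 had the same sign in both orientations. Grinl1a was -0.28 where the separated pool was in Cy5 and 0.62 where it was in Cy3, and Grin1 was 0.55 and -0.32. The authors' deposited table, turned by sign, held 31 of the 40 names. Both pools lie on every array, so each log2 ratio already compares them within an array. Beyond that, no paired analysis was possible because the array numbers name technical repeats of 1 pool per group.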
